A study of Homo sapiens with 4 samples.

Results

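Antisense lncRNA genes that lie wholly inside a protein-coding gene on the other strand were examined in TT-seq data from HEK293 cells, a human embryonic kidney line. A gene was taken as a member when its stable identifier has the GENCODE type lncRNA, when its whole span falls inside such a gene, and when it had at least 40 counts summed over the 4 libraries. Symbols that begin with SNHG or HOX and microRNA host genes were left out. The members were thus chosen by measured counts, summed without regard to condition, and their level is a description. Of 60708 genes in the table, 16657 were lncRNA genes, 3881 of these met the rule on position and symbol, and 1013 also had the counts. Of the others, 704 were listed at 0 in every library and 2164 had 1 to 39 counts. Every member entered the test described below.

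The cells carry an RPB1 degron, a tag that lets auxin trigger loss of the largest subunit of RNA polymerase II. They were transiently transfected with plasmids for RPB1 that has either 52 wild-type repeats in its C-terminal domain (WT_52x, 2 libraries) or the same 52 repeats with T4A, threonine 4 replaced by alanine, in each (T4A_52x, 2 libraries). Auxin was added to all of them 48 h after transfection and kept for 48 h, and RNA was labeled with 4-thiouridine for 20 min and purified, so that most reads come from RNA made in that time, introns included. Nothing in the labels says whether the 2 libraries of a condition came from separate cultures, so p-values measure only the spread between these libraries, which may be technical. Transfected cells were not separated from the rest, and neither loss of the endogenous protein nor presence of the mutation can be read from these counts.

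An antisense transcript is made from the strand opposite a gene's own, by a polymerase that starts at a promoter of its own or from a region with no defined start. Such RNAs are mostly nuclear and short-lived, being removed by the nuclear exosome after early termination, and short labeling therefore shows them better than steady-state RNA does. A few have known roles, such as KCNQ1OT1, the imprinted antisense RNA of the KCNQ1 locus, and BACE1-AS, reported to stabilise the mRNA of the BACE1 secretase.

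Library totals ranged from 33188536 to 45605027 counts. Over the members, log2 levels of the WT libraries correlated at 0.967, T4A replicate 2 with either WT library at 0.953, and T4A replicate 1 with the other 3 libraries at 0.904 to 0.917, so T4A replicate 1 stood apart and results are given below without it where they change. POLR2A, which encodes RPB1 and is also counted from the plasmids, had 9622 and 8702 CPM (counts scaled to library size, with TMM factors) in WT and 7484 and 8089 in T4A. VIM, CDH2 and NEFL, genes that this line expresses, had at least 1396 counts in each library. PAX2 and LHX1, also of this line, had 80 to 96 and 106 to 152, and NEFM, another, had at most 6. Of genes of other cell types, CD3E, HBB, APOA1 and INS had at most 12. PTPRC had 4 to 28, ALB 30 to 38 and COL1A1 62 to 102, so COL1A1 reached about the level of PAX2.

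The sequences in front of members show how much their starts differ. A RefSeq promoter (assembly GRCh38.p14, 250 bases before the start and 50 after) was found by symbol for 227 members, and for 151 of them its start lay within 100 bases of the start in the count table. The promoters of 2 members with high counts and of 2 with few reads relative to their sense genes are printed 5′ to 3′ on the strand of the lncRNA, with each CG pair in capitals. The first is that of SPART-AS1 (chr13:36346181-36346480, plus strand), the second that of SDCBP2-AS1 (chr20:1325093-1325392, plus strand), the third that of GTF2I-AS1 (chr7:74728869-74729168, minus strand) and the last that of PITRM1-AS1 (chr10:3141351-3141650, plus strand).
SPART-AS1: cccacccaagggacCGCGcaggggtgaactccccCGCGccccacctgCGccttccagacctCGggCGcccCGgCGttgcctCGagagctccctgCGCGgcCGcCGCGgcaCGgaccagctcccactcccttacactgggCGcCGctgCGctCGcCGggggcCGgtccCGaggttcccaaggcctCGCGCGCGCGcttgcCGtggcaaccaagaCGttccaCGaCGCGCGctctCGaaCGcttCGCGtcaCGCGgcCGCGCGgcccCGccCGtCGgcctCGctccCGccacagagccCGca
SDCBP2-AS1: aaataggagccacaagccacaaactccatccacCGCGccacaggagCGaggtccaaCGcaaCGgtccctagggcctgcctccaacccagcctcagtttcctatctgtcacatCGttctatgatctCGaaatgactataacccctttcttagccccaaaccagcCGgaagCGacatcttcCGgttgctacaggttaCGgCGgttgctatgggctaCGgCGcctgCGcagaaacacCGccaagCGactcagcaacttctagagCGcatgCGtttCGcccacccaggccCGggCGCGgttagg
GTF2I-AS1: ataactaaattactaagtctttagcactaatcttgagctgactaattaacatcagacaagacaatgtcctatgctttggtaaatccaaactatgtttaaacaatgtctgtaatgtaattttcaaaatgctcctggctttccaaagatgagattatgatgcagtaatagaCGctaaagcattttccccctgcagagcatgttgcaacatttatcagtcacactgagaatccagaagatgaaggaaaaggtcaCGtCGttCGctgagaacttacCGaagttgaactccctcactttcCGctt
PITRM1-AS1: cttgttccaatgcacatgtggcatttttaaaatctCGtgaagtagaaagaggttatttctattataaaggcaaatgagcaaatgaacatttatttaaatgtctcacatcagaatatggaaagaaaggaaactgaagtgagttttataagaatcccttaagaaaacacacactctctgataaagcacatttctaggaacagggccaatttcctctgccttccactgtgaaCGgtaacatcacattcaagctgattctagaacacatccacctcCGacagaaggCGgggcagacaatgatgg

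These 4 promoters hold 49, 23, 6 and 4 CG pairs. Over the 151 members the median was 11 pairs, against 14 over all 35116 RefSeq promoters. A GC box (GGGCGG, searched on both strands) was present in 38.4% of the 151 and in 45.0% of all promoters, a CCAAT box (CCAAT, both strands) in 30.5% and 34.6%, a TATA box (TATAAA, both strands) in 9.93% and 11.5%, and CCGGAA (both strands), the core bound by ETS factors, in 19.2% and 17.2%. A match is a string of letters and not a mapped site.

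Members were short beside the genes that hold them. Their spans had a median of 6.18 kb and quartiles of 1.84 and 19.8 kb, and a member covered a median of 9.43% of its sense gene. The 1013 members lie on 23 chromosomes and in 928 sense genes, of which 77 hold more than 1. For the place of the start, the sense gene was cut into 4 equal parts along its own direction. In the first part 124 members started, in the second 202, in the third 236 and in the last 451. The rule on position favours the later parts. A member inside its sense gene starts at the end of its span nearer the sense gene's 3′ end. Its start cannot lie closer to the sense start than its own length. How far the skew goes beyond this was not tested. In 87 the lncRNA started within 1 kb of the sense gene's end, in 42 it ended within 1 kb of the sense start, in 5 it started within 1 kb of the sense start, and the other 879 lay in the interior. Another protein-coding gene on the other strand from the lncRNA had its start within 1 kb of the lncRNA start in 56 cases. Only 329 members have a given symbol, 267 of these named after the sense gene, and 684 are known by identifier alone. Another gene of the member's own strand overlaps it in 91 cases, where reads shared by both genes may have been left out of the count, and 922 have no such overlap.

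The counts of members spanned a wide range. The median was 120 counts over the 4 libraries, the quartiles were 66 and 268, and 339 members had at least 200. The rule's limit cuts through a dense part of the range, with 13 members at exactly 40 counts and 9 candidates at 39. Counts were 0 in at least 1 library for 10 members, and 48 members lie in a sense gene with under 40 counts. The 24 members at 40 or 41 counts had medians of 10, 10, 12 and 10 counts in WT 1, WT 2, T4A 1 and T4A 2, and the 30 candidates at 38 or 39 had 10, 8, 10 and 9.5. All members together took 87058, 95144, 75680 and 77674 counts in the 4 libraries, or 2218 and 2086 CPM of the whole library, without TMM scaling, in WT and 2236 and 2340 in T4A.

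To compare a member with its sense gene, CPM without TMM factors were divided by the length in kb that no other gene of the same strand covers. On this scale of density, members had a median of 0.197 CPM per kb and their sense genes, counted once per member, 0.499. For 993 members a ratio of the densities could be formed. It was above 1 in 334, between 0.1 and 1 in 407 and under 0.1 in 252, with a median of 0.442. Levels of the partners were weakly related, with a Spearman coefficient of 0.281 for density across 965 pairs, which share libraries and depth and, for some, the sense gene.

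Most reads of sense genes were kept off the antisense strand. Among 78 candidates, members or not, whose sense gene placed 5000 or more reads over their span by its mean density, the 5th percentile of the antisense to sense ratio was 0.294% over the 4 libraries together. It was 0.136% and 0.0591% in WT and 0.567% and 0.163% in T4A, so the library with the highest value was T4A replicate 1. A low antisense level was then estimated in each library from 2494 lncRNA genes that fell under the 40 counts. Where the sense gene was nearly silent (695 genes, sense density under 0.05 CPM per kb), antisense density was 0.00458 and 0.00353 CPM per kb in WT and 0.00787 and 0.00549 in T4A. Elsewhere, with that density subtracted, it came to 1.02% and 0.844% of the sense density in WT and 1.32% and 1.10% in T4A. Both values were higher in each T4A library than in either WT library, and highest in T4A replicate 1. Olfactory receptor genes, 335 genes of the nose that kidney cells do not use, had the same order, with 0.00710, 0.00653, 0.0103 and 0.00830 CPM per kb in the order above. At these densities the low level would fill 8.76%, 7.44%, 12.7% and 9.34% of the counts of the members.

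**Figure D1:**
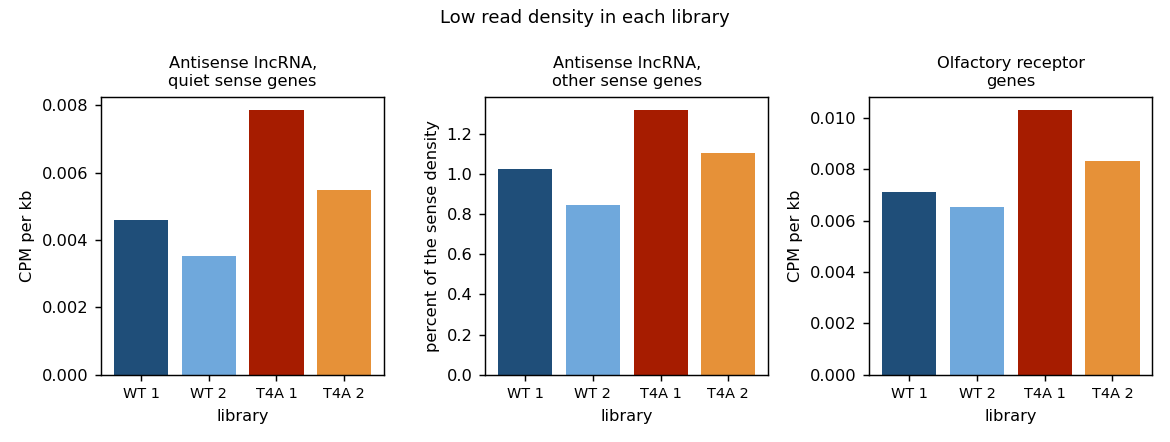
Low read density in the 4 libraries, 1 bar for each library and no error bars. At left is the antisense density in CPM per kb over lncRNA genes under 40 counts in nearly silent sense genes. The middle panel has the antisense density in other sense genes, less the density at left, as a percent of the sense density. At right is the density over olfactory receptor genes. In each panel both T4A bars stand above both WT bars, and T4A replicate 1 is the highest.

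Set against WT, no member passed the test in T4A. In edgeR's quasi-likelihood test over 23052 genes, with an adjusted p below 0.05 and a change over 1.5-fold required, 0 members and 0 sense genes were called, and 1 gene in all, CHST8, which is not a member (0.00434% of genes tested). DESeq2 also called 0 members. At an unadjusted p below 0.05, 62 members were higher in T4A and 34 lower, or 6.12% and 3.36% of members, against 7.36% and 7.99% of all genes tested. Both shares of members were below those of all genes. Both T4A libraries lay above both WT libraries in 277 members (27.3%, all genes 24.7%) and below both in 148 (14.6%, all genes 24.6%). The error was large for such counts: the SE of a log2 fold change had a median of 0.45 in members and 0.12 in sense genes. The calls turned on single libraries. Without T4A replicate 2, 109 members were called (10.8%, all genes 11%), 59 higher and 50 lower, and 232 had an unadjusted p below 0.05 (22.9%, all genes 27.4%). Without T4A replicate 1, 5 members were called (0.494%, all genes 0.915%), 4 higher and 1 lower, and 115 had such a p (11.4%, all genes 15.9%). Without WT replicate 1, 0 members were called (all genes 0.013%) and 50 had such a p (4.94%, all genes 7.92%). Without WT replicate 2, 0 members were called (all genes 0.0%) and 29 had such a p (2.86%, all genes 5.42%). In each of these fits the share of members was no higher than that of all genes.

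The members as a whole leaned slightly upwards. Their median log2 fold change was 0.15, against 0.00 over all genes tested, and 61.7% of members had a value above 0. Relative to the WT mean, the median over members was 0.06 and -0.06 in the WT libraries and 0.13 and 0.13 in the T4A libraries, so the gap between groups was of the size of the gap between the WT libraries. Other lncRNA genes had a median of 0.17 (5256 genes), lncRNA genes that overlap no protein-coding gene 0.22 (3166 genes), and other gene types inside a protein-coding gene on the other strand 0.04 (496 genes). A lean of this size was thus present in lncRNA genes elsewhere too.

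It also followed the number of counts. Members with under 100 counts had a median of 0.31, those with 100 to under 200 had 0.16, those with 200 to under 1000 had 0.02 and those with 1000 or more had 0.02. All genes with the same counts had medians of 0.39, 0.25, 0.06 and -0.07. In the 3 lower classes the median of members was below that of all genes, and in the highest class of 56 members it was above.

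**Figure D2:**
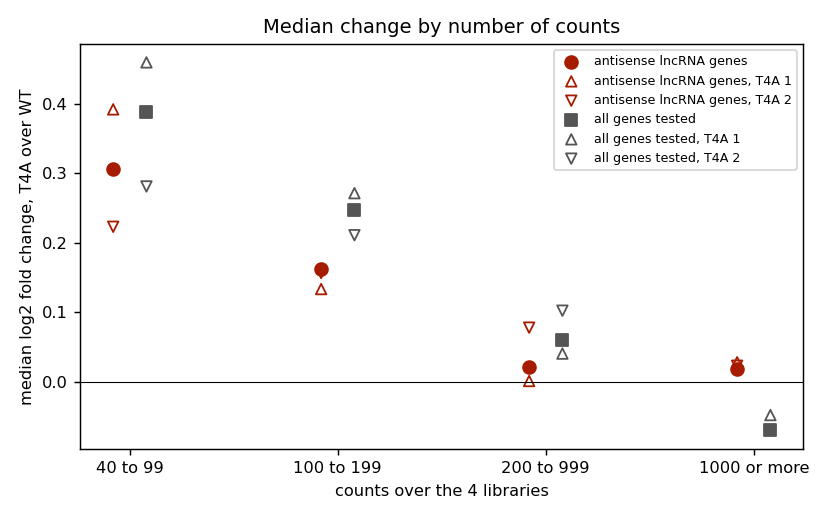
Median log2 fold change of T4A over WT in 4 classes of counts summed over the libraries, for antisense lncRNA genes (circles) and all genes tested (squares), with open triangles for each T4A library against the mean of the WT libraries. The median falls from 0.31 to 0.02 over the classes in members and from 0.39 to -0.07 in all genes.

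Length and height over the low antisense level went with the lean too. The cuts by length, density ratio and height overlap, since a member's low level grows with its length and its sense gene's density. They are thus not independent. The 252 members of 20 kb or more had a median log2 fold change of 0.43. In 105 of them (41.7%, all genes 24.7%) both T4A libraries lay above both WT libraries. The 494 of 2 to 20 kb had 0.11, and the 267 under 2 kb had -0.05. The 252 members with a density under 0.1 of the sense gene's had a median of 0.51. At an unadjusted p below 0.05 in edgeR, 36 of them (14.3%) were higher and 0 lower, against 7.36% and 7.99% of all genes tested. The 334 with a density above the sense gene's had 0.03, with 10 higher (2.99%) and 16 lower (4.79%). All genes of like length or level were not set beside these sets. The size of these medians turned on single libraries. Without T4A replicate 1, the median was 0.19 for members of 20 kb or more. It was then 0.27 for those under 0.1 of the sense density and 0.09 for those above the sense density. Without WT replicate 2, the medians of these sets were 0.33, 0.35 and -0.04. They were 0.47, 0.60 and 0.06 without WT replicate 1, and 0.55, 0.64 and -0.01 without T4A replicate 2. Counts of 296 members came to under 5 times the low level and had a median of 0.52, again with 38 higher (12.8%) and 0 lower. The 700 at 5 times that level or more had a median of 0.02, with 24 higher (3.43%) and 34 lower (4.86%). Without T4A replicate 1 the medians were 0.22 and 0.10. With any one of the other libraries left out, the first set had 0.36 to 0.71 and the second -0.04 to 0.06, so the direction of the second is not settled. Within that range, the first set had 0.36 without WT replicate 2 and 0.71 without T4A replicate 2. With all 4 libraries, 62 members were higher at an unadjusted p below 0.05 in edgeR. Of these, 38 were among the 296 nearest the low level, which itself was higher in both T4A libraries. The part of the low level in these changes was not tested.

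**Figure D3:**
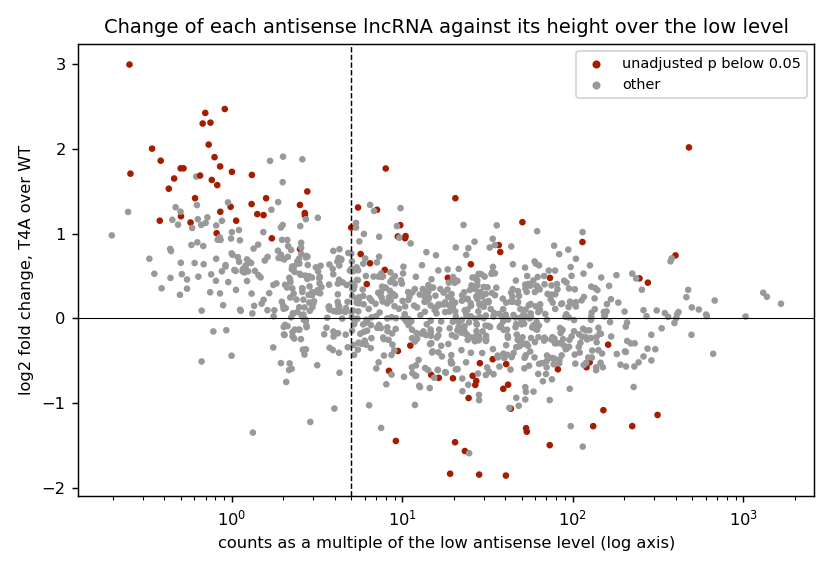
Log2 fold change of T4A over WT for each of 996 members against its counts as a multiple of the low antisense level (log axis), with members at an unadjusted p below 0.05 in red and a dashed line at 5 times. With all 4 libraries, the median left of the line is 0.52 and no member is lower at that p, and right of it the median is 0.02 with 24 higher and 34 lower.

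The promoters of these sets can be set side by side, as a description with no test. Of 36 members under 5 times the low level with a RefSeq promoter, the median number of CG pairs was 4 and the median GC content 46.8%, against 17 and 59.3% for 113 members at 5 times or more. A CCGGAA match was found in 5.56% and 23.9%, a GC box in 25% and 42.5%, a TATA box in 19.4% and 7.08%, and a CCAAT box in 27.8% and 31.0%. GTF2I-AS1 and PITRM1-AS1, printed above with 6 and 4 CG pairs, belong to the first set, and SPART-AS1 and SDCBP2-AS1 to the other. The printed promoters do not show the range within a set. EPB41L4A-AS1 and TRPC7-AS1, at 1662 and 144 times the low level, had 7 and 3 CG pairs.

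Sense genes leaned the other way. The median log2 fold change of the 882 sense genes that were tested was -0.07, as it was over all genes with 1000 or more counts. Both T4A libraries lay below both WT libraries in 35.4% of the sense genes. The share was 35.5% over all genes with 1000 or more counts and 24.6% over all genes tested. In 965 pairs the lncRNA and the sense gene could both be tested. The lncRNA had the higher log2 fold change in 591 (61.2%), and the median difference was 0.18. It was higher with the sense gene lower in 365 pairs, lower with the sense gene higher in 120, higher together in 236 and lower together in 244. The median difference was 0.03 for the 673 pairs whose lncRNA was at 5 times the low level or more, and -0.02 for the 53 pairs whose lncRNA had 1000 or more counts. Across the 965 pairs the changes had a Spearman coefficient of 0.06, and of 0.07 in the 325 pairs whose lncRNA had at least 200 counts, as a description of pairs measured in the same 4 libraries.

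**Figure D4:**
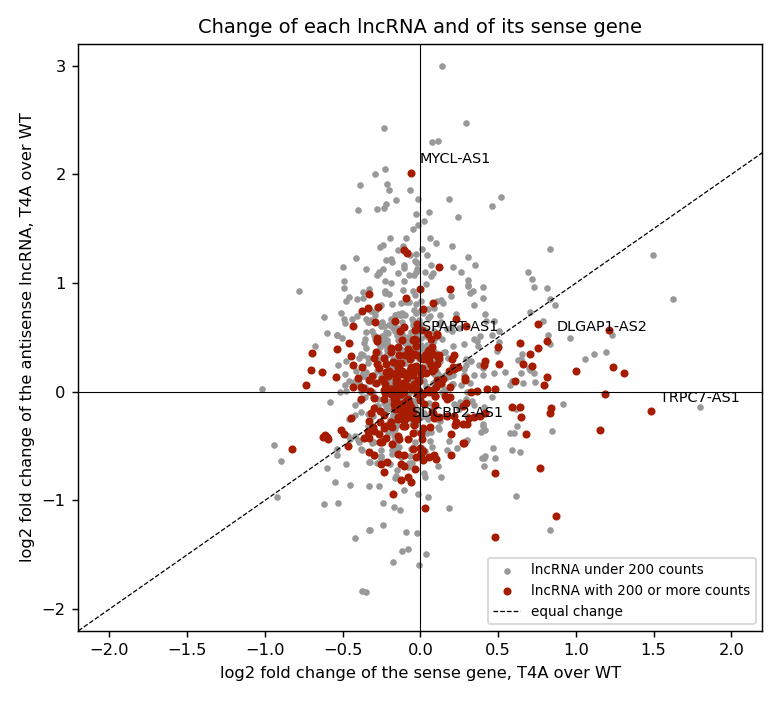
Log2 fold change of T4A over WT of each lncRNA (vertical axis) against that of its sense gene (horizontal axis) in 965 pairs, with lncRNA genes of 200 or more counts in red, the dashed line marking equal change. The points form a cloud with no clear slope (Spearman 0.06), and MYCL-AS1 stands high above a sense gene near 0.

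The ratio within each pair was tested directly. In limma on log2 ratios over 1441 pairs of any gene type, 0 members were called at an adjusted p below 0.05 (0.0% of all pairs tested), and the lowest adjusted p was 0.0688. At an unadjusted p below 0.05 the ratio was higher in T4A in 87 members (9.02%, all pairs 8.95%) and lower in 39 (4.04%, all pairs 4.65%), shares near those of all pairs. The median log2 change of the ratio was 0.17 in 965 members and 0.08 in 476 pairs of other types. Over the 1013 members and their 928 sense genes, antisense counts made up 2.68% and 2.56% of antisense and sense counts in WT and 2.79% and 2.96% in T4A. The T4A libraries were above both WT libraries, with means of 2.87% ± 0.125 (SD, n = 2) and 2.62% ± 0.0910 (SD, n = 2). An exact two-sided permutation test of the difference of 0.255 points gave p = 0.333, the smallest that 2 against 2 libraries allows.

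Among single members, MYCL-AS1 came nearest to the threshold. It is a 1.35 kb gene (chr1:39897745-39899098) inside MYCL, which encodes the transcription factor L-Myc. It had 2.12 and 2.78 CPM in WT and 11.2 and 8.71 in T4A. Both T4A libraries lay well above both WT libraries, with a log2 fold change of 2.02 (SE 0.23) and an adjusted p of 0.0923 in edgeR. MYCL itself had 100 and 108 counts in WT and 75 and 88 in T4A, a log2 fold change of -0.06 (SE 0.25). The antisense share of the pair was accordingly 45.4% and 53.2% in WT and 83.4% and 77.4% in T4A. The log2 ratio differed by 2.08 (SE 0.27), with an adjusted p of 0.116 in limma. Its counts were 480 times the low antisense level and no other gene of its strand overlaps it.

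Of the 8 members with most counts, SDCBP2-AS1 and CCNY-AS1 were lower in both T4A libraries than in both WT libraries. SPART-AS1, EPB41L4A-AS1 and ZNF8-DT were higher in both, and none of the 8 passed the test. SDCBP2-AS1 (chr20:1325405-1378735), antisense to a protein-coding gene known here as ENSG00000274322, had 18296 counts in all. Its CPM were 133 and 132 in WT and 112 and 102 in T4A, both T4A libraries lower, and its log2 fold change was -0.31 (SE 0.09, adjusted p = 0.219, edgeR). KCNQ1OT1 (chr11:2608328-2699994) had 77.3 and 72.0 CPM in WT and 80.9 and 72.3 in T4A, with overlapping groups and a log2 fold change of 0.04 (SE 0.10). Its density was 59.1 times that of KCNQ1, the potassium channel gene that it is antisense to, and it made up 91.9% to 94.6% of the reads of the pair. EPB41L4A-AS1 (chr5:112160526-112164818), a snoRNA host gene, had 50.0 and 52.0 CPM in WT and 58.8 and 56.1 in T4A, slightly higher in both, with a log2 fold change of 0.17 (SE 0.09).

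SPART-AS1 (chr13:36346431-36369601) had the lowest adjusted p among the 8 members with most counts. It ends within 1 kb of the start of SPART, the spartin gene, and had 35.4 and 35.9 CPM in WT and 51.7 and 47.5 in T4A. The groups were far apart beside the spread within them, and the log2 fold change was 0.48 (SE 0.10, adjusted p = 0.158, edgeR), which did not pass the test. SPART had a log2 fold change of -0.05 (SE 0.09), and the antisense share was 22.7% and 20.8% in WT and 29.0% and 28.1% in T4A. NBR2 (chr17:43125551-43153671), the neighbour of BRCA1 that reads away from its promoter, had 48.5 and 48.0 CPM in WT and 48.6 and 46.5 in T4A, with no separation. CCNY-AS1, in the cyclin Y gene, had 40.5 and 49.0 CPM in WT and 39.9 and 38.7 in T4A. ZBED9-AS1, in SCAND3, had 33.9 and 27.2 CPM in WT and 32.0 and 33.6 in T4A. ZNF8-DT, whose sense gene had at most 18 counts in a library, had 26.4 and 30.3 CPM in WT and 31.8 and 32.7 in T4A.

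**Figure D5:**
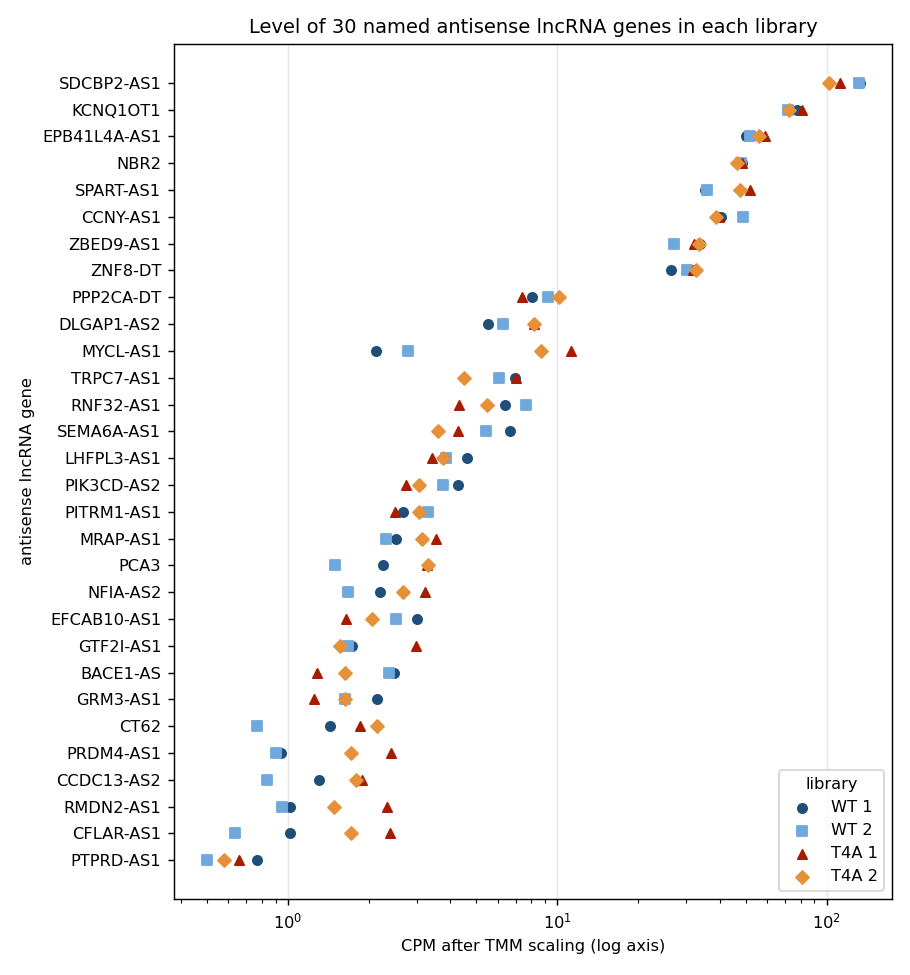
CPM after TMM scaling (log axis) of the 30 named members, 1 point for each library, ordered by mean level. MYCL-AS1 shows the widest gap between WT (2.12 and 2.78) and T4A (11.2 and 8.71), while points of KCNQ1OT1 and NBR2 overlap.

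Among named members with at least 200 counts, those with the highest fold changes after MYCL-AS1 were mostly low ones. CFLAR-AS1, in the gene of the apoptosis inhibitor c-FLIP, had 1.02 and 0.634 CPM in WT and 2.38 and 1.71 in T4A, both T4A libraries higher, with a log2 fold change of 1.31 (SE 0.37, adjusted p = 0.218, edgeR). CFLAR itself had -0.10 (SE 0.09). The counts of CFLAR-AS1 came to 5.49 times the low antisense level, and its density to 0.0969 of that of CFLAR. PRDM4-AS1 had 0.944 and 0.906 CPM in WT and 2.41 and 1.71 in T4A, a log2 fold change of 1.15 (SE 0.33), but its counts came to 1.06 times the low antisense level. RMDN2-AS1 and PCA3, a prostate cancer marker RNA inside PRUNE2, stood at 0.94 (SE 0.35) and 0.82 (SE 0.28) and at 1.71 and 2.51 times the low level. CT62, in THSD4, stood at 0.86 (SE 0.37) and 36.8 times. In all of these both T4A libraries exceeded both WT libraries, and in each but CT62 and PCA3 T4A replicate 1 was the higher of the T4A libraries.

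Lower in both T4A libraries at an unadjusted p below 0.05, apart from SDCBP2-AS1, were 3 named members with at least 200 counts. BACE1-AS (chr11:117288453-117293571) had 2.47 and 2.38 CPM in WT and 1.28 and 1.62 in T4A, lower in both, with a log2 fold change of -0.74 (SE 0.28, adjusted p = 0.285, edgeR). BACE1 had -0.23 (SE 0.11), and the ratio of the pair -0.51 (SE 0.26). SEMA6A-AS1, in the gene of a membrane semaphorin, had 6.68 and 5.43 CPM in WT and 4.29 and 3.59 in T4A, a log2 fold change of -0.62 (SE 0.21), with SEMA6A at 0.10 (SE 0.10). RNF32-AS1 had 6.38 and 7.65 CPM in WT and 4.31 and 5.47 in T4A, a log2 fold change of -0.52 (SE 0.21). None of these passed the test, and the counts of each came to more than 5 times the low level. PTPRD-AS1, inside the receptor phosphatase gene PTPRD, had 30, 22, 22 and 20 counts, too few for a difference to be detectable at this depth unless it was large (log2 fold change -0.03, SE 0.47).

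Some members had many times the density of a sense gene with a low counted density. Where another gene of its own strand overlaps a sense gene, reads shared by both may have been left out of its count. DLGAP1-AS2 had 173 times the density of DLGAP1, a scaffold gene of synapses, MRAP-AS1 153 times that of MRAP, TRPC7-AS1 143 times that of TRPC7, a cation channel gene, and PPP2CA-DT 86.4 times that of its sense gene. In the TRPC7 pair the sense gene separated the groups and the antisense gene did not. TRPC7 had 17 and 18 counts in WT and 56 and 24 in T4A, while TRPC7-AS1 had 6.94 and 6.04 CPM in WT and 6.99 and 4.49 in T4A. The log2 ratio differed by -1.54 (SE 0.25), with an adjusted p of 0.116 in limma, and the highest sense count was that of T4A replicate 1. DLGAP1-AS2 had 5.53 and 6.27 CPM in WT and 8.18 and 8.19 in T4A, a log2 fold change of 0.47 (SE 0.18) beside 0.82 (SE 0.24) for DLGAP1.

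At the other end stood members with a small fraction of a strong sense gene's density. NFIA-AS2 had 0.0210 of that of NFIA, a transcription factor gene, PRDM4-AS1 0.0129 of PRDM4, GTF2I-AS1 0.0243 of GTF2I and PITRM1-AS1 0.0324 of PITRM1, a mitochondrial protease gene. All 4 had under 3 times the low antisense level. NFIA-AS2 had 2.19 and 1.68 CPM in WT and 3.21 and 2.66 in T4A, a log2 fold change of 0.60 (SE 0.27), while NFIA had -0.43 (SE 0.11). GTF2I-AS1 had 1.73 and 1.68 CPM in WT and 2.98 and 1.56 in T4A, where T4A replicate 1 alone was high. PITRM1-AS1 had 2.68 and 3.31 CPM in WT and 2.50 and 3.07 in T4A, with no separation.

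The 4 lowest differences from the sense gene were taken among members with a given symbol and at least 200 counts in both partners. In each the lncRNA was lower and the sense gene higher, and the sense gene had 261 to 710 counts in all. GRM3-AS1 had a log2 fold change of -0.39 (SE 0.32) beside 0.68 (SE 0.31) for GRM3, a glutamate receptor gene, LHFPL3-AS1 -0.24 (SE 0.22) beside 0.65 (SE 0.31) for LHFPL3, EFCAB10-AS1 -0.58 (SE 0.27) beside 0.19 (SE 0.25) for EFCAB10, and PIK3CD-AS2 -0.47 (SE 0.23) beside 0.27 (SE 0.21) for PIK3CD, a lipid kinase gene. In GRM3 and LHFPL3 the highest sense count was in T4A replicate 1, with 86 and 186 counts. Opposed to these, CCDC13-AS2 had 0.78 (SE 0.34) beside -0.27 (SE 0.23). The lowest adjusted p of any ratio belonged to a member known by identifier only, ENSG00000259546, in CEMIP, a gene of hyaluronan breakdown, which was chosen after its values were seen. It had 22.9 and 20.5 CPM in WT and 17.8 and 16.2 in T4A, and CEMIP had 244 and 266 counts in WT and 520 and 409 in T4A. Both partners separated the groups, in opposite directions, and the log2 ratio differed by -1.50 (SE 0.16, adjusted p = 0.0688, limma).

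Members that share a sense gene can be set side by side. ZFHX3, a transcription factor gene, holds 4, and no sense gene holds more. LINC01568 had 0.867 and 0.724 CPM in WT and 2.2 and 1.51 in T4A, a log2 fold change of 1.22 (SE 0.36), at 1.53 times the low antisense level. ENSG00000271009 had 0.67 (SE 0.38) at 59.6 times, ENSG00000261227 had 0.06 (SE 0.57) and HCCAT5 had -0.01 (SE 0.61). ZFHX3 itself had -0.19 (SE 0.09). The errors of the last pair are too large for a difference among the 4 to be read.

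Factors that limit antisense RNA, by decay or by early termination, were counted from a list of 19 genes. Tested were 18, since EXOSC3, an exosome subunit that cells need, is listed at 0 in every library. At an unadjusted p below 0.05 in edgeR, 1 of the 18 was higher and 1 lower, against 7.36% and 7.99% of all genes tested, and the median log2 fold change was 0.02. PCF11, which couples 3′ end processing to termination, had 0.36 (SE 0.09, adjusted p = 0.198, edgeR), with 212 and 220 CPM in WT and 278 and 274 in T4A. ZC3H4, which restricts noncoding transcription, had -0.28 (SE 0.10), with 134 and 119 CPM in WT and 99.8 and 109 in T4A. The exosome nucleases EXOSC10 and DIS3 had -0.05 (SE 0.09) and 0.17 (SE 0.09), and MTREX, the helicase that feeds the exosome, 0.02 (SE 0.12). INTS11, the nuclease of Integrator, had 14.5 and 12.6 CPM in WT and 5.21 and 14 in T4A, where T4A replicate 1 alone was low.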

How the data were processed

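TT-seq was done on 4 libraries of HEK293 RPB1 degron cells. The authors deposited raw counts per gene from featureCounts, over the full span of each gene, and the submitters' processing notes name STAR 2.7.11b, cutadapt 4.6 and deepTools 3.5.6 without their order. Libraries were strand-specific per the labels. The strand setting of the counting is not given in the sources used here. Coordinates are GRCh38: 99.97% of 19145 protein-coding genes overlapped their RefSeq position. GENCODE types were matched by stable identifier for 58700 genes. The sense gene was the smallest enclosing protein-coding gene on the other strand, and 31 members had several.

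Counts were tested with edgeR 4.0.16 (quasi-likelihood, TMM, R 4.3.3) over genes with at least 40 counts in all, and log2 ratios of lncRNA to sense counts, with 0.5 added to each, with limma 3.58.1, both adjusted by Benjamini-Hochberg. Scripts were tested on simulated data. Alternatives were library sizes or RLE factors, other filters, DESeq2 1.42.0, other sense genes, a replicate block and each library left out. Named genes are members with a given symbol: the 8 with most counts, textbook cases and, from 200 counts, up to 6 with the largest changes each way at an unadjusted p below 0.05 without overlap, and the 4 highest and lowest density ratios and differences from the sense gene. The members and lists were chosen with earlier results of these data known. Depth was 33188536 to 45605027 counts per library.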

Additional observations from a re-analysis of the deposited data

How the results depend on the processing

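Members called and pairs called stayed at 0 with library sizes without TMM, RLE factors, other filters, DESeq2, other sense genes, a pseudocount of 2 and the sense count as offset, where each was run. With a replicate block, 8 members (6 higher, 2 lower) and 8 pair ratios (2 higher, 6 lower) were called. The shares of all genes and of all pairs called with the block are not given here, so these counts have no background. The median log2 fold change of members was then 0.14. The deviations of same-numbered libraries correlated at -0.07, which gave no sign of pairing by number. With 2 libraries in each condition, this value cannot show whether same-numbered libraries were prepared together. Leaving out each library gave 0 to 109 called members, 29 to 232 members at an unadjusted p below 0.05, 0 called pairs each time, and medians of 0.081 to 0.20 for members, -0.075 to -0.048 for sense genes and 0.13 to 0.22 for the difference. DESeq2 put 35 members below that p (26 higher, 9 lower), and the share of all genes in that fit is not given here. Library sizes without TMM gave sense genes -0.021, members 0.19 and all genes 0.05. Members with at least 200 counts gave a median of 0.021, a difference of 0.034 and 42 below that p. Alternatives chosen after seeing the data gave, for members at least 5 times the low antisense level, a median of 0.020, a difference of 0.034 and 58 below that p (24 higher, 34 lower), and, with low-level counts subtracted, a median of 0.0061. The cause was not tested. The antisense share differed by 0.254 to 0.277 points in its alternatives. Precision is limited by counts: 339 of 1013 members had 200 or more.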
